A study of Mus musculus with 36 samples.

Results

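Interferon-stimulated genes were followed in cultured murine keratinocytes that carried, lacked or regained the junction protein plakophilin 4 (PKP4). The set held 40 genes named from textbook knowledge of the interferon response, and each was found by its symbol in the counts table, so that 40 of the 55358 genes listed there were members. The rule used no expression value, although the members were chosen with earlier results of these data known. The members were sorted by role into 4 transcription factors, 3 nucleic acid sensors, 4 IFIT genes, 5 OAS genes, 4 GTPases, 5 genes of the ISG15 system and ubiquitin ligases, 3 PARP genes, 3 antigen processing genes and 9 other effectors.

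Poly(A) RNA had been sequenced from primary keratinocytes of newborn wild-type mice (WT), from keratinocytes of pups homozygous for a Pkp4 allele without exon 9, which was derived from the tm1b allele by removal of its lacZ reporter (PKP4-KO), and from PKP4-KO keratinocytes that expressed GFP-tagged human PKP4 (Rescue). All cells were kept in low calcium medium (LCM) or in the same medium with calcium chloride added (HCM), which starts junction assembly and differentiation, for either 24 h or 72 h. This gave 12 groups of 3 libraries, 36 libraries in all. The Rescue cells had been transduced with a lentivirus and selected with puromycin, which is not stated for the WT and PKP4-KO cells of these libraries, so that the return of PKP4 and the transduction cannot be told apart in comparisons with Rescue. The sources used here do not say whether the 3 libraries of a group came from separate cultures or pups, and p-values then measure only the spread between these libraries.

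Interferons are secreted cytokines that bind cell surface receptors and signal through the JAK kinases. Type I and type III interferons activate a complex that contains STAT2 and IRF9 and binds the interferon-stimulated response element (ISRE), whereas the response to interferon gamma runs through the gamma-activated site (GAS). The induced genes restrict viral replication, sense foreign nucleic acid and raise antigen presentation. Keratinocytes are a barrier cell type that can respond to all of these ligands, and several of the genes are also kept at a low level without any interferon.

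The libraries held 13602728 to 22467187 counts each, and a floor of 3 counts, which covers counting error only, stood for 0.110 to 0.436 CPM, which is the count relative to the scaled library total. Levels are given as CPM scaled with TMM factors, which were 0.481 to 0.546 in the PKP4-KO 72 h HCM libraries and 0.705 to 1.39 in all others. Pkp4 itself lay between 33.4 and 76.3 CPM in the WT libraries and between 6.40 and 14.1 CPM in the PKP4-KO libraries without overlap, at 12.6%, 19.9%, 27.5% and 18.8% of the WT mean at 24 h LCM, 24 h HCM, 72 h LCM and 72 h HCM (p = 0.1 each by a two-sided exact permutation test over 3 against 3 libraries, the smallest p this design allows), and between 6.52 and 11.9 CPM in the Rescue libraries, whose transgene is human. The 10 keratinocyte markers summed to 23540 to 71752 CPM, while the 7 immune markers summed to 0.0396 to 2.42 CPM, with Cd207 at 0 in every library, and the 5 fibroblast markers to 0 to 7.51 CPM. Of the immune markers, Trdc exceeded 3 counts in 17 libraries and reached 37. Immune sums lay higher in Rescue than in WT in all 4 conditions, as at 24 h HCM with 1.06 to 2.42 against 0.361 to 0.503 CPM. Fibroblast sums at 72 h HCM were 4.87 to 6.02 CPM in Rescue and 0 to 0.908 CPM in PKP4-KO, and they overlapped at 24 h HCM and 72 h LCM. The part of such cells in the levels of the members was not tested. The 4 melanocyte markers summed to 0.155 to 2.03 CPM and the 2 endothelial markers to 0.156 to 4.73 CPM, with Tyr at 0 in every library, Cdh5 at 0 in 31 of 36 and Pecam1 above 3 counts in all 36. In bulk RNA of this kind, fewer cells with a transcript and less transcript per cell cannot be told apart.

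Most of the interferon-stimulated genes followed here were close to silent in all 12 groups. Of the 40 members, 23 did not pass the filter on low counts that was applied to all genes, 15 had a median of 0 counts over the 36 libraries, and 6 never rose above 3 counts (Oas2, Usp18, Herc6, Rsad2, Rtp4 and Ifi44). Isg15, the ubiquitin-like modifier that is among the most strongly induced of these genes, was at 0 in 20 of 36 libraries and reached 8 counts at most. Oas2, which makes the second messenger of RNase L, had 1 count in all 36 libraries together. Rsad2 (viperin, an inhibitor of viral replication) and Ifi44 had 4 counts each, Herc6 had 11, Cmpk2, a nucleotide kinase, had 12 and Rtp4 had 13. Ifit3 summed to 18 counts, Usp18, which removes ISG15 from its targets, to 20, Psmb8 to 29 and Ifit1 to 30. These levels lay at the floor of the measurement, and the model that was fitted after the filter did not test them.

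The members that sense nucleic acid fell in the same low range. Ifih1, which encodes the double-stranded RNA sensor MDA5, had a sum of 45 counts and was at 0 in 21 libraries. Zbp1, a sensor of Z-form nucleic acid, summed to 39 counts. Dhx58, which encodes the RNA sensor LGP2, summed to 113 counts and exceeded 3 counts in 15 libraries. Its counts were 0, 0 and 0 in WT and 4, 5 and 8 in PKP4-KO at 72 h LCM. The remaining members below the filter were Parp14 (35 counts in sum), Oasl2 (45), Dtx3l (48), Oas3 (53), Mx2 (53), Mx1 (59), Lgals3bp (77), Parp9 (109) and Xaf1 (114), and no count of any of the 23 exceeded 15 in a library. Summed over these 23 genes, a library held 5 to 54 counts.

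The 17 members that passed the filter were the factors Irf1, Irf7, Irf9 and Stat2, the effectors Ifit2, Ifit3b, Oas1a, Oasl1, Gbp2, Gbp3, Bst2, Ifi27 and Ifi35, the ligase Trim25, the ADP-ribosyltransferase Parp12, and Psmb9 and Tap1 of the antigen processing machinery. Only 8 of them (Irf1, Irf9, Stat2, Trim25, Parp12, Tap1, Ifi27 and Ifi35) had more than 3 counts in every library, and 5 had a median above 100 counts, namely Irf1, Trim25, Parp12, Tap1 and Ifi35.

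**Figure D1:**
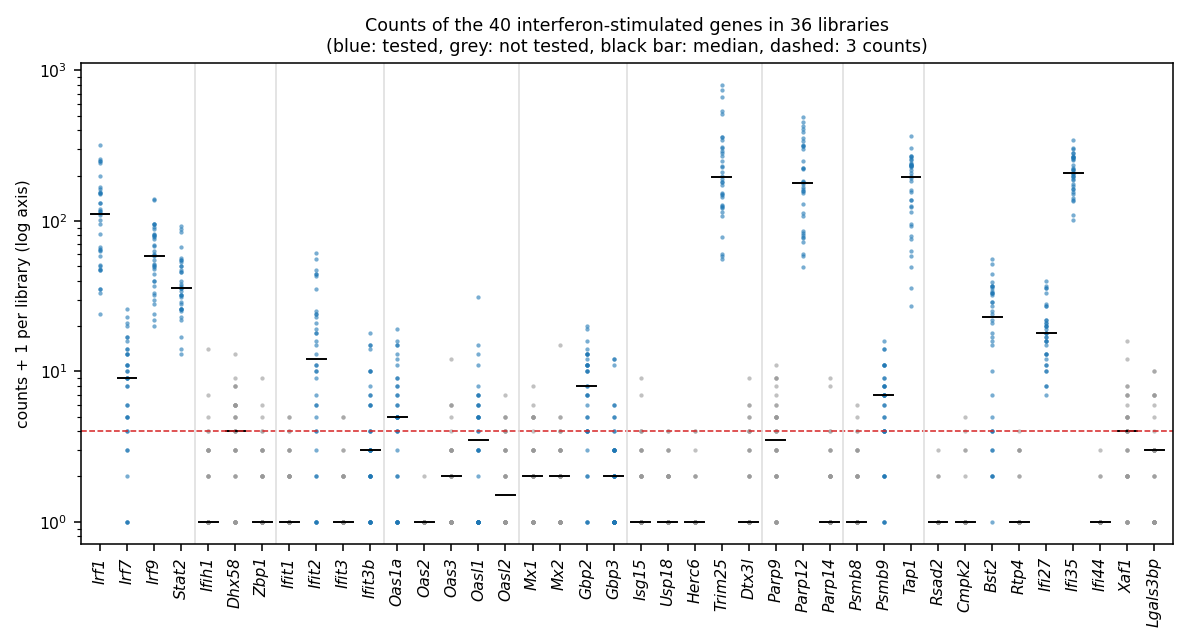
Counts plus 1 of each of the 40 members (x axis, ordered by role) in the 36 libraries on a log axis, with 1 point a library, a black bar at the median, and blue for the 17 tested and grey for the 23 untested members. The medians of Irf1, Trim25, Parp12, Tap1 and Ifi35 stand above 100 counts, while 15 members have a median of 0 and lie below the dashed line at 3 counts.

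The DNA before the transcription starts is shown for members at both ends of this range, since the ISRE and the GAS are the sites through which interferons act on these genes. The 250 bases before the start of the canonical transcript were read from GRCm39 (GENCODE vM39 annotation) for all 40 members and for 21614 protein-coding genes in all. The ISRE core was searched as GAAANNGAAA on both strands and the GAS as TTCNNNGAA, which reads alike on both strands. An ISRE core was found before 13 of the 40 members (32.5%) and before 3.32% of all genes, and a GAS before 5 members (12.5%) and 7.73% of all genes. Among the 23 members below the filter on low counts 9 held an ISRE core (39%), and among the 17 tested members 4 did (23.5%). For the GAS the split went the other way, with 1 of the 23 (4.35%) and 4 of the 17 (23.5%). In the lines that follow, all bases of a match are in capitals, each sequence runs along the gene's strand, and matches that overlap form 1 run of capitals.
Isg15 (chr4:156285304-156285553, minus strand): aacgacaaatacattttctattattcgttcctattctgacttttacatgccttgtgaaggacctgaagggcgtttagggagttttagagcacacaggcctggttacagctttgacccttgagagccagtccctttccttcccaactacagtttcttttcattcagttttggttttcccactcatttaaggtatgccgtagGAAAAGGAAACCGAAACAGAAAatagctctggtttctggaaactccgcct
Rsad2 (chr12:26506452-26506701, minus strand): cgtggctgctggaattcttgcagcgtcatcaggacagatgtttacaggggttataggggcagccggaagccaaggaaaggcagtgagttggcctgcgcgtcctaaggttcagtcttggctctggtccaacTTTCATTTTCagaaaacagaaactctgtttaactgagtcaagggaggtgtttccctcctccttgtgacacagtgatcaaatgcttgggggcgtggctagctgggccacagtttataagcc
Zbp1 (chr2:173060725-173060974, minus strand): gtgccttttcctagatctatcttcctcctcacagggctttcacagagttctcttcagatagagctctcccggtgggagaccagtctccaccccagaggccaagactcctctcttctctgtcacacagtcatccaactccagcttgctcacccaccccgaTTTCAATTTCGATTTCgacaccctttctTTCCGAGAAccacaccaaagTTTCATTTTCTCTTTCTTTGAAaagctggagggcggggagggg
Bst2 (chr8:71990115-71990364, minus strand): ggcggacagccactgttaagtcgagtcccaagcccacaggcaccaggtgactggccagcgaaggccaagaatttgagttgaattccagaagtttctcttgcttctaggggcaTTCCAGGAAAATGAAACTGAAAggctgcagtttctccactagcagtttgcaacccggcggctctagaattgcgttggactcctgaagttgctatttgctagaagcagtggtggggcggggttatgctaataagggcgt
Stat2 (chr10:128106102-128106351, plus strand): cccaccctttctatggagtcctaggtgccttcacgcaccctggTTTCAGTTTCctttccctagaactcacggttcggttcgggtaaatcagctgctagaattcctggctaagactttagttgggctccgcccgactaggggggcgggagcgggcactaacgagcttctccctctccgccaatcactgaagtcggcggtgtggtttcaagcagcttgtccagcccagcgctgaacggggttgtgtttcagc
Irf1, GAS with 10 bases on each side (chr11:53660741-53660769, plus strand): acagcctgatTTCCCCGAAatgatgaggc

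In these windows, Isg15 held 3 overlapping ISRE cores that began 50, 44 and 38 bases before the start, and Rsad2 held 1 at 120 bases, although both genes were at or near 0 counts. Zbp1 held 4 ISRE cores and 2 GAS, the cores at 91, 85, 43 and 37 bases. Bst2 held 2 ISRE cores at 132 and 126 bases that overlapped with a GAS at 138 bases. Irf1 held a GAS at 90 bases and no ISRE core, and the windows of Trim25, Parp12 and Tap1 held neither motif. These last windows overlap exons of Gm11496, 4930599N23Rik and Psmb9, in this order, and that of Tap1 also overlaps an alternative exon of Tap1. The window of Irf1 overlaps an exon of Gm74496 and an alternative exon of Irf1. A match is a description of the letters, and binding was not measured.

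On the FPKM scale, which divides counts by library size and exon length so that genes can be compared, Ifi35 had the highest level of the members, with a median of 6.83 FPKM over the 36 libraries. It was followed by Parp12 (2.39), Trim25 (1.90), Tap1 (1.89), Irf1 (1.31) and Bst2 (1.09), all below the median of 3.06 FPKM over the tested protein-coding genes. The neighbouring values of Parp12, Trim25 and Tap1 did not stand apart, since their ranges over the libraries ran from 0.806 to 5.79, from 0.984 to 6.47 and from 0.690 to 3.41. Isg15, with a short transcript, reached 0.542 FPKM in its highest library.

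The ligands were at or near 0 counts, while the receptors and kinases were present. Of 10 interferon genes listed, 8 had 0 counts in every library, among them Ifnb1 and Ifnk, an interferon made by keratinocytes, and Ifng and Ifna2 had 3 counts each over all 36 libraries. All 9 receptor and kinase genes were tested: Ifnar1 stood at a median of 3.05 FPKM, Ifngr2 at 6.06, Jak1 at 7.59, and the type III receptor chain Ifnlr1 at 0.359. Of the sensing genes, Irf3 (13.1 FPKM), Mavs (6.94), Tbk1 (3.30) and Ddx58 (1.77), the gene of the RNA sensor RIG-I, were present. The DNA sensor Cgas had 7 counts over all libraries and Sting1 95. Trex1 was listed at 0 throughout, but 100% of its exonic bases are shared on the same strand with Atrip and Shisa5, and the part of this overlap in the 0 was not tested. Levels of the other listed interferon-induced genes, which are not members, spread widely. Among them, B2m (32.4 FPKM), H2-D1 (31.3), Psme2 (18.2) and Psme1 (12.2) lay above the median of 3.06 FPKM over the tested protein-coding genes. H2-K1 (1.95), Eif2ak2 (1.08) and Tap2 (0.0774) lay below it. The panel of levels per length shows the ligands at 0 beside the receptors between 0.359 and 7.59 FPKM.

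**Figure D2:**
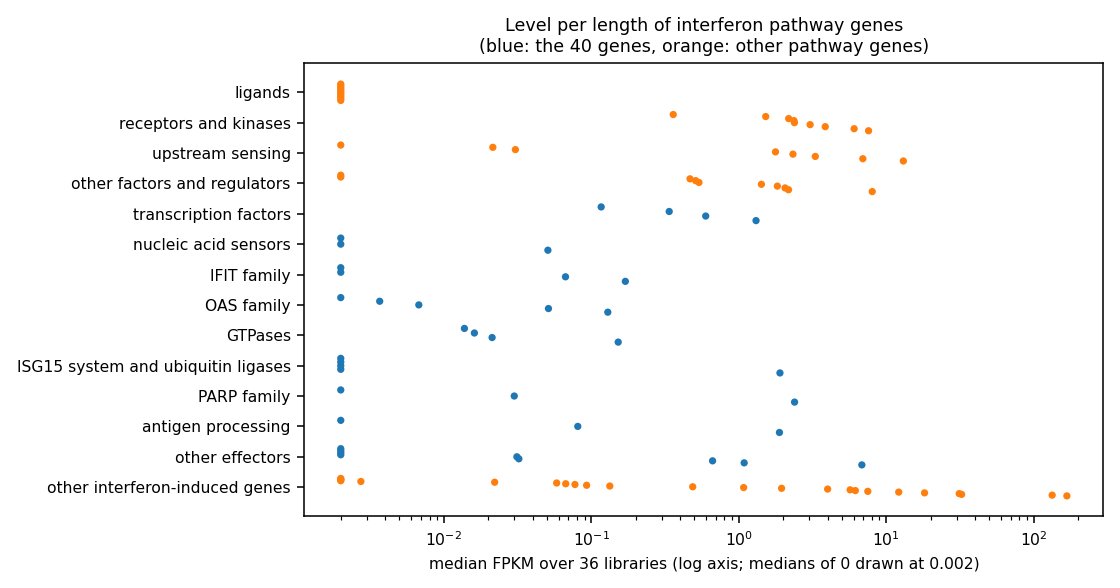
Median FPKM over 36 libraries (log axis, medians of 0 drawn at the left edge) of the 40 members (blue) and the other listed interferon pathway genes (orange), 1 point a gene, by role (y axis). All 10 ligands lie at 0, the 9 receptors and kinases between 0.359 and 7.59 FPKM, and the IFIT, OAS and GTPase members below 0.2 FPKM.

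Compared with WT, PKP4-KO keratinocytes showed no common direction over the 17 tested members. At 24 h LCM 5 members were higher and 3 lower in PKP4-KO, at 24 h HCM 4 and 2, at 72 h LCM 3 and 5, and at 72 h HCM 4 and 5 (edgeR quasi-likelihood test, Benjamini-Hochberg adjusted p below 0.05 over 15114 genes). Over all tested genes, 19.7% were called higher and 20.6% lower at 24 h LCM, 20.7% and 22.2% at 24 h HCM, 21.3% and 23.8% at 72 h LCM, and 21.9% and 29.9% at 72 h HCM. The median log2 fold change of the members was -0.44, -0.36, -0.27 and -0.10 in this order, against 0.00, -0.00, 0.02 and -0.07 over all tested genes. In all 4 conditions 2 members were called higher, Bst2 and Irf1, and 2 lower, Parp12 and Tap1 (11.8% of the tested members each way, against 8.48% and 10.2% of all tested genes). No member was called in opposite directions in different conditions.

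The scaling of the libraries bore on the 72 h HCM comparison. Without TMM factors the median log2 fold change of all genes moved to -0.23 at 24 h LCM, -0.35 at 72 h LCM and -0.83 at 72 h HCM, and the members called at 72 h HCM became 1 higher and 6 lower in place of 4 and 5. The calls of Irf1 (0.38, adjusted p = 0.21, edgeR), Irf9 and Ifi27 at 72 h HCM were lost under that scaling, and no called member changed its sign in PKP4-KO against WT. Ifi35 at 24 h LCM was lost too (0.36, adjusted p = 0.0994, edgeR). Among all called genes the share called higher went from 48.9% to 34.1% at 24 h LCM, from 47.3% to 25.7% at 72 h LCM and from 42.2% to 13.5% at 72 h HCM. With DESeq2 and its size factors the member calls at 72 h HCM were 5 higher and 5 lower.

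Among the transcription factors, Irf1 was higher in PKP4-KO in all 4 conditions. Irf1 (chr11:53660812-53669200, plus strand) encodes a factor that is induced by interferon gamma and other stimuli and drives antigen presentation genes. Its levels were 5.34, 7.64 and 7.91 CPM in WT and 10.6, 12.4 and 14.8 CPM in PKP4-KO at 24 h LCM, and 2.94, 3.52 and 2.34 against 11.7, 10.8 and 12 CPM at 24 h HCM. At 72 h the values were 4.71, 4.71 and 5.27 against 12.1, 12.6 and 12.1 CPM in LCM and 2.95, 2.00 and 2.36 against 4.32, 4.65 and 7.15 CPM in HCM. The WT and PKP4-KO libraries did not overlap in any condition. The log2 fold changes were 0.86 (SE 0.20, adjusted p = 0.00104) at 24 h LCM, 1.97 (SE 0.21, adjusted p = 8.45e-09) at 24 h HCM, 1.32 (SE 0.20, adjusted p = 5.1e-06) at 72 h LCM and 1.14 (SE 0.22, adjusted p = 0.000103) at 72 h HCM (edgeR). In Rescue, Irf1 fell against PKP4-KO by 1.25, 1.89 and 1.73 on the log2 scale at 24 h LCM, 24 h HCM and 72 h LCM, while at 72 h HCM it stayed at 7.69, 6.04 and 5.14 CPM, with a log2 fold change of 0.22 that was not called. Of the exonic bases of Irf1, 44.6% lie under antisense genes (Gm12216, Gm17334). The libraries were strand-specific, but the strand setting of the counting is not given in the sources used here, so that reads from these bases are uncertain.

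Irf7, which amplifies type I interferon production, was near the limit of detection and had no count in the PKP4-KO 72 h HCM libraries. Its counts there were 0, 0 and 0, against 4, 10 and 13 in WT and 10, 9 and 12 in Rescue. PKP4-KO was at least 4.85-fold lower than WT and Rescue at least 3.56-fold higher than PKP4-KO, each against a floor of 3 counts over the group. The sum of the other group was taken as exact, so that these limits are not ends of a 95% interval. The first of these limits was at least 3.23-fold without PKP4-KO 72 h HCM replicate 1 and at least 3.04-fold without PKP4-KO 72 h HCM replicate 3. The second was at least 2.37-fold without PKP4-KO 72 h HCM replicate 1 and at least 2.23-fold without PKP4-KO 72 h HCM replicate 3. The adjusted p-values were 0.00128 and 0.00257 (edgeR). In the other 3 conditions the WT libraries held 3 to 25 counts and the PKP4-KO libraries 1 to 15, and no difference was called. Irf9, the DNA-binding subunit of the complex with STAT2, was called at 72 h HCM only, with 29, 39 and 19 counts in WT and 31, 21 and 36 in PKP4-KO and a log2 fold change of 0.90 (SE 0.31, adjusted p = 0.0182). That call was lost without PKP4-KO replicate 1 (adjusted p = 0.053), PKP4-KO replicate 3 (0.0654) or WT replicate 1 (0.0782), all by edgeR. Stat2 was not called in any of the 4 comparisons, with log2 fold changes from -0.68 to 0.33. Against WT, Rescue was higher at 72 h HCM for Irf1 (1.36 (SE 0.21, adjusted p = 1.43e-05)) and Irf9 (0.96 (SE 0.30, adjusted p = 0.0146)), at 24 h LCM for Irf9 (0.83), and lower at 24 h HCM for Stat2 (-1.04), by edgeR. The Irf9 calls were lost without single libraries (adjusted p up to 0.0609 without WT 72 h HCM replicate 1 and 0.355 without Rescue 24 h LCM replicate 2, edgeR), and that of Stat2 without Rescue 24 h HCM replicate 1 (adjusted p = 0.0825, edgeR).

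Trim25, a ubiquitin ligase that also conjugates ISG15 and acts on the RNA sensor RIG-I, was higher in PKP4-KO in 3 of 4 conditions. It read 7.88, 6.65 and 7.71 CPM in WT and 25.5, 33.5 and 37.2 in PKP4-KO at 24 h LCM. At 24 h HCM the values were 11.8, 10.9 and 8.82 and 24.8, 31.1 and 22.7, at 72 h LCM 6.02, 5.66 and 5.68 and 17.1, 19.0 and 25.5, and at 72 h HCM 7.50, 7.22 and 6.05 and 7.24, 8.0 and 8.74 CPM. The genotypes stood clear of each other except at 72 h HCM. The log2 fold changes were 2.11 (SE 0.18, adjusted p = 1.36e-10), 1.32 (SE 0.17, adjusted p = 3.55e-07), 1.83 (SE 0.18, adjusted p = 1.84e-09) and, not called, 0.20 (SE 0.18, adjusted p = 0.36) (edgeR). Rescue lay below PKP4-KO in the first 3 conditions (log2 fold changes -1.38, -1.34 and -1.0) and above it at 72 h HCM (0.72 (SE 0.18, adjusted p = 0.00102)). The call at 72 h LCM was lost without TMM factors (-0.63, adjusted p = 0.0538, edgeR). Rescue lay above WT at 24 h LCM by 0.73, at 72 h LCM by 0.83 and at 72 h HCM by 0.92 on the log2 scale, of which the first was lost without TMM factors (0.59, adjusted p = 0.122, edgeR). The other 4 members of this role, Isg15, Usp18, Herc6 and Dtx3l, were below the filter.

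Parp12 and Tap1 moved the opposite way to Irf1 and Trim25. Parp12, an ADP-ribosyltransferase with antiviral activity, read 9.25, 9.68 and 8.23 CPM in WT and 4.02, 5.37 and 3.33 in PKP4-KO at 24 h LCM, and 21.9, 18.0 and 23.1 against 3.82, 3.22 and 3.55 CPM at 24 h HCM. At 72 h it read 15.6, 16.1 and 14.5 against 7.80, 9.31 and 9.10 in LCM and 23.1, 20.7 and 22.7 against 10.7, 8.58 and 9.08 in HCM. Every PKP4-KO library lay below every WT library of its condition. The log2 fold changes were -1.09 (SE 0.19, adjusted p = 3.13e-05), -2.57 (SE 0.19, adjusted p = 8.32e-12), -0.82 (SE 0.18, adjusted p = 0.000591) and -1.23 (SE 0.19, adjusted p = 4.17e-06) (edgeR). Against PKP4-KO, Rescue rose by 0.61, 1.52, 0.78 and 0.44 on the log2 scale in the same order. The last of these was lost without Rescue replicate 1 (0.28, adjusted p = 0.232, edgeR), PKP4-KO replicate 2 or PKP4-KO replicate 3 and with DESeq2, and the first without Rescue replicate 2 (adjusted p = 0.0837, edgeR) or PKP4-KO replicate 3. The libraries of the 2 genotypes overlapped in both of these conditions. In HCM, Rescue was below WT by 1.06 at 24 h and 0.79 at 72 h on the log2 scale, the latter lost without TMM factors (-0.38, adjusted p = 0.21, edgeR).

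Tap1 encodes a subunit of the transporter that carries peptides to class I molecules. Its WT and PKP4-KO levels were 10.2, 11.5 and 12.3 and 6.42, 4.77 and 5.71 CPM at 24 h LCM, 11.8, 13.2 and 18.7 and 6.38, 5.23 and 5.54 at 24 h HCM, 12.8, 12 and 12.2 and 3.78, 4.78 and 3.90 at 72 h LCM, and 12.8, 15.7 and 16.4 and 4.45, 3.78 and 5.45 at 72 h HCM. All PKP4-KO libraries were below all WT libraries of the same condition. The log2 fold changes were -1.01 (SE 0.18, adjusted p = 6.76e-05), -1.35 (SE 0.19, adjusted p = 7.16e-07), -1.57 (SE 0.19, adjusted p = 1.01e-07) and -1.71 (SE 0.20, adjusted p = 4.24e-08) (edgeR). Rescue was higher than PKP4-KO in all 4 conditions, by 1.0, 1.14, 0.76 and 1.26 on the log2 scale, and below WT at 72 h LCM (-0.81). Psmb9, a catalytic subunit of the immunoproteasome that is transcribed from the start region shared with Tap1, held 0 to 15 counts a library and was not called in any genotype comparison. The exons of the pair overlap on opposite strands, over 12.4% of the exonic bases of Tap1 and 19.6% of those of Psmb9. The 187 other tested genes within 5 Mb of Tap1 had median log2 fold changes between 0.21 and 0.46 in the same 4 comparisons.

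**Figure D3:**
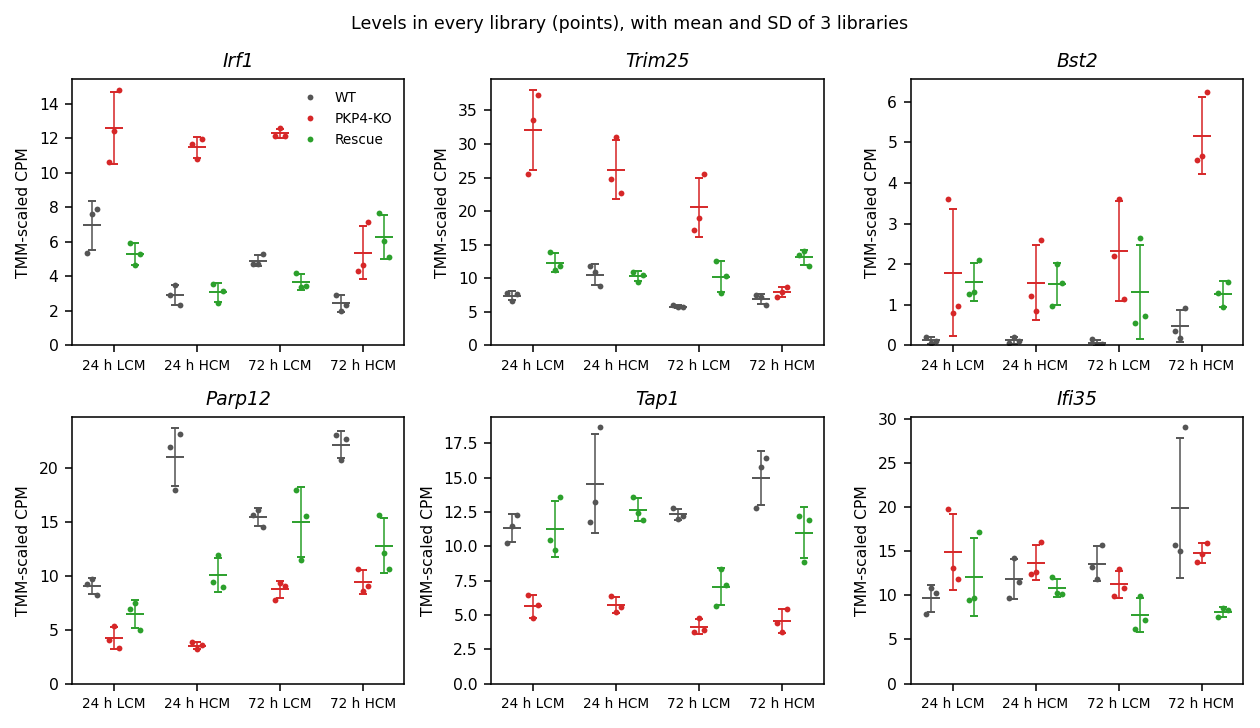
TMM-scaled CPM (y axis) of 6 members in every library (points) by culture condition (x axis) for WT (grey), PKP4-KO (red) and Rescue (green), with the mean and SD of 3 libraries. Irf1 and Bst2 are higher and Parp12 and Tap1 lower in PKP4-KO than in WT in all 4 conditions, and Trim25 is higher in 3, with PKP4-KO and WT side by side at 72 h HCM.

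Bst2, which encodes tetherin, a membrane protein that holds budding virus at the cell surface, had the largest log2 differences of the 4 members called in all conditions. Its counts in WT were 4, 1 and 2 at 24 h LCM, 1, 3 and 2 at 24 h HCM, 3, 0 and 1 at 72 h LCM and 6, 3 and 9 at 72 h HCM. In PKP4-KO they were 51, 16 and 21, 26, 20 and 35, 36, 43 and 23 and 36, 32 and 55 in this order. In Rescue they were 28, 32 and 32, 17, 38 and 31, 15, 36 and 14 and 28, 24 and 33. No PKP4-KO library overlapped with the WT libraries of its condition. The adjusted p-values of PKP4-KO against WT were 0.000377, 0.000538, 1.78e-05 and 0.000185 (edgeR), with log2 fold changes of 3.73, 3.63, 5.08 and 3.51. Since the WT counts were few, the ratio was also taken from the summed counts, and it was 12.1-fold (95% exact binomial interval 5.34 to 34.0) at 24 h HCM and 35.4-fold (95% exact binomial interval 13.4 to 133) at 72 h LCM. The latter was 99.7-fold without WT 72 h LCM replicate 1 and 22.1-fold without WT 72 h LCM replicate 2. Unlike for Irf1 and Trim25, no call was made for Rescue against PKP4-KO at 24 h LCM, 24 h HCM or 72 h LCM, where the log2 values were -0.18, -0.00 and -0.85 (SE 0.62, 0.66 and 0.63), and Rescue remained above WT there by 3.55, 3.63 and 4.23. At 72 h HCM Rescue was lower than PKP4-KO (-2.02 (SE 0.63, adjusted p = 0.0064), edgeR), a call that was lost without TMM factors (-0.86, adjusted p = 0.151). Bst2 (chr8:71986895-71990114) shares no exonic base with another listed gene.

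The IFIT genes encode proteins that bind foreign RNA and sit in 1 cluster on chromosome 19. Ifit2 was lower in PKP4-KO at 72 h, with 23, 42 and 15 counts in WT and 0, 0 and 3 in PKP4-KO in LCM, and 18, 23 and 2 against 0, 0 and 1 in HCM. Without PKP4-KO replicate 3 the log2 fold changes went from -4.15 to -7.41 in LCM and from -4.22 to -7.07 in HCM. The ratios of the summed counts, WT over PKP4-KO, were 19.2-fold (95% exact binomial interval 6.33 to 95) and 23.2-fold (95% exact binomial interval 3.94 to 936), with adjusted p = 0.000967 and 0.00555 (edgeR). The ratio in LCM was 12.7-fold without PKP4-KO 72 h LCM replicate 1 and at least 11.2-fold without PKP4-KO 72 h LCM replicate 3. That in HCM was 15.4-fold without PKP4-KO 72 h HCM replicate 1 and at least 4.84-fold without PKP4-KO 72 h HCM replicate 3. At 24 h its counts were 43, 8 and 14 in WT against 4, 5 and 17 in PKP4-KO in LCM and 20, 10 and 12 against 3, 9 and 6 in HCM, and no difference was called. In Rescue at 72 h HCM it was back at 46, 60 and 43 counts, 51.4-fold (95% exact binomial interval 9.08 to 2043) above PKP4-KO, which was 34.2-fold without PKP4-KO 72 h HCM replicate 1 and at least 10.7-fold without PKP4-KO 72 h HCM replicate 3. Rescue was also called higher at 24 h HCM, where the call was lost without Rescue replicate 3 (log2 fold change 1.5, adjusted p = 0.161, edgeR) or PKP4-KO replicate 1. At 72 h LCM Rescue held 22, 1 and 5 counts, and its call was lost without Rescue replicate 1 (1.47, adjusted p = 0.384, edgeR), PKP4-KO replicate 1 or PKP4-KO replicate 2, the groups overlapping, while without PKP4-KO replicate 3 it was 5.91. Ifit3b was called lower at 72 h HCM only, with 17, 14 and 13 counts in WT and 2, 0 and 0 in PKP4-KO, a ratio of 11.9-fold (95% exact binomial interval 3.09 to 101). That call was lost without PKP4-KO replicate 2 (adjusted p = 0.0688, edgeR) or replicate 3 (0.0785), and without replicate 1 the log2 fold change went from -3.52 to -7.27. The ratio was at least 5.26-fold without PKP4-KO 72 h HCM replicate 1 and 7.42-fold without PKP4-KO 72 h HCM replicate 3. Ifit3 and Ifit3b are near copies, and reads could be split between them.

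The region around the IFIT cluster moved with these genes. The 55 other tested genes within 5 Mb of Ifit2 had a median log2 fold change of -0.92, -0.62, -0.93 and -1.19 in PKP4-KO against WT at 24 h LCM, 24 h HCM, 72 h LCM and 72 h HCM. In Rescue against PKP4-KO, the same genes had medians of 0.69, 0.56, 0.99 and 1.38. The part of this regional difference in the values of Ifit2 and Ifit3b was not tested. Around Bst2, the median of the 125 neighbours lay between 0.07 and 0.29 in PKP4-KO against WT, and around Irf1 that of 97 neighbours between -0.20 and 0.00.

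Of the OAS genes, Oas1a, an oligoadenylate synthetase, was higher in PKP4-KO at 24 h. Its counts were 0, 2 and 0 in WT and 18, 4 and 4 in PKP4-KO in LCM, a ratio of 13.0-fold (95% exact binomial interval 3.24 to 113) with adjusted p = 0.00722 (edgeR). Without PKP4-KO replicate 1 the log2 fold change went from 3.62 to 2.2 and the call was lost (adjusted p = 0.127, edgeR), and without WT replicate 2 it went to 6.29. The ratio was 5.36-fold without PKP4-KO 24 h LCM replicate 1, 8.52-fold without WT 24 h LCM replicate 1, at least 5.96-fold without WT 24 h LCM replicate 2 and 8.46-fold without WT 24 h LCM replicate 3. In HCM the counts were 0, 0 and 0 in WT and 14, 12 and 0 in PKP4-KO, so that PKP4-KO was at least 7.79-fold higher, and the groups overlapped at 0. This limit was at least 4.93-fold without WT 24 h HCM replicate 1 and at least 4.90-fold without WT 24 h HCM replicate 3. Rescue held 15, 14 and 8 counts in LCM and 5, 7 and 6 in HCM at 24 h, above WT in both (16.7-fold (95% exact binomial interval 4.30 to 143) in LCM and at least 5.64-fold in HCM). The former was 11.0-fold without WT 24 h LCM replicate 1, at least 7.66-fold without WT 24 h LCM replicate 2 and 10.9-fold without WT 24 h LCM replicate 3. The latter was at least 3.57-fold without WT 24 h HCM replicate 1 and at least 3.55-fold without WT 24 h HCM replicate 3. At 72 h the differences of PKP4-KO from WT were not called, with log2 fold changes of 1.78 and 2.27. Oasl1, a related protein without synthetase activity, was at 0, 0 and 0 counts in PKP4-KO at 24 h LCM and 0, 0 and 0 at 24 h HCM. In WT it held 3, 0 and 2 and 5, 0 and 4, and neither difference was called. Rescue at 24 h HCM held 4, 5 and 3 counts, at least 4.18-fold above PKP4-KO, and this call was lost when any of 5 of the 6 libraries was left out, with adjusted p up to 0.0956 (edgeR, without PKP4-KO replicate 2). The limit was at least 2.66-fold without PKP4-KO 24 h HCM replicate 1 and at least 2.48-fold without PKP4-KO 24 h HCM replicate 2. Rescue was called above WT for Oasl1 at 72 h LCM (3.66), a call lost without WT replicate 2 (adjusted p = 0.107), WT replicate 3 (0.102) or Rescue replicate 1 (0.06), and 6.96 without WT replicate 1, by edgeR.

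The guanylate-binding proteins Gbp2 and Gbp3, GTPases that act on intracellular pathogens, were called lower in PKP4-KO in LCM, Gbp3 at both times and Gbp2 at 72 h. Gbp3 held 11, 5 and 11 counts in WT and 0, 0 and 1 in PKP4-KO at 24 h, a ratio of 27.1-fold (95% exact binomial interval 4.46 to 1109) with adjusted p = 0.00404 (edgeR). This rested on 1 count in PKP4-KO, and it was 17.4-fold without PKP4-KO 24 h LCM replicate 2 and at least 5.55-fold without PKP4-KO 24 h LCM replicate 3. At 72 h it held 4, 2 and 3 against 0, 0 and 0, at least 2.16-fold lower in PKP4-KO, a call that was lost without any 1 of the PKP4-KO libraries or WT replicate 1 (adjusted p 0.0592 to 0.0749, edgeR) and with DESeq2 (adjusted p = 0.0524). This limit was at least 1.43-fold without PKP4-KO 72 h LCM replicate 1 and at least 1.27-fold without PKP4-KO 72 h LCM replicate 3. At 24 h LCM Gbp2 read 10, 12 and 3 counts in WT and 4, 4 and 11 in PKP4-KO, with a log2 fold change of -0.44 that was not called. It read 10, 2 and 15 counts in WT and 0, 0 and 1 in PKP4-KO at 72 h LCM, a ratio of 19.4-fold (95% exact binomial interval 3.20 to 795), and 9, 0 and 7 counts in Rescue, which overlapped with PKP4-KO. The ratio of WT to PKP4-KO was 12.8-fold without WT 72 h LCM replicate 3, 12.8-fold without PKP4-KO 72 h LCM replicate 1 and at least 3.80-fold without PKP4-KO 72 h LCM replicate 3. The Rescue call there (3.23) was lost without Rescue replicate 1 (adjusted p = 0.062), Rescue replicate 3 (0.0553), PKP4-KO replicate 1 (0.0689) or PKP4-KO replicate 2 (0.0533), and was 5.2 without PKP4-KO replicate 3, all by edgeR. Reads could be divided among these neighbouring GBP genes. Mx1 and Mx2 were below the filter.

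The calls of the 2 remaining effectors in PKP4-KO against WT were each lost when single libraries were left out. Ifi35 was called higher in PKP4-KO at 24 h LCM (7.93, 10.8 and 10.3 CPM in WT and 19.8, 13.1 and 11.8 in PKP4-KO, log2 fold change 0.62 (SE 0.25, adjusted p = 0.0462), edgeR). This was lost without PKP4-KO replicate 1 (adjusted p = 0.307) or any 1 of the WT libraries (0.19, 0.0526 and 0.0688), all by edgeR. Ifi27 was called at 72 h HCM (0.88 (SE 0.35, adjusted p = 0.0354), edgeR) with overlapping groups, and the call was lost without PKP4-KO replicate 1 (0.154), PKP4-KO replicate 3 (0.0902), WT replicate 1 (0.15) or WT replicate 2 (0.123), given as edgeR adjusted p. In Rescue, Ifi35 was below WT at 72 h, by 0.81 in LCM and 1.28 in HCM on the log2 scale, the former lost without Rescue replicate 1 (adjusted p = 0.0715) or WT replicate 3 (0.0607), by edgeR. Ifi27 was called higher in Rescue than in PKP4-KO at 24 h LCM (1.65) and lower at 72 h HCM (-1.62), the latter lost without TMM factors (-0.46, adjusted p = 0.242, edgeR). Its calls above WT at 24 h (1.06 in LCM and 1.05 in HCM) were lost without single libraries, with adjusted p up to 0.109 without WT 24 h LCM replicate 3 and 0.182 without WT 24 h HCM replicate 3 (edgeR).

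In Rescue against PKP4-KO, the members called were 3 higher and 2 lower at 24 h LCM, 4 and 2 at 24 h HCM, 4 and 2 at 72 h LCM, and 5 and 3 at 72 h HCM. Over all tested genes the shares were 18.2% and 15.5%, 21.7% and 19%, 23.3% and 18.3%, and 37.2% and 29.5%. Without TMM factors the split at 72 h HCM became 10 higher and 0 lower, the median of all genes moved from 0.20 to 1.37, and Ifi35 turned from -0.86 to 0.31, which was not called. Against WT, the Rescue calls were 5 higher and 0 lower at 24 h LCM, 3 and 2 at 24 h HCM, 3 and 2 at 72 h LCM, and 3 and 2 at 72 h HCM, with 13.5% and 11.4%, 11.8% and 11.4%, 17.9% and 14.6%, and 19.5% and 16.7% of all tested genes. Among all called genes, the share called higher without TMM factors went from 56.0% to 76.9% at 72 h LCM and from 55.8% to 84.7% at 72 h HCM in Rescue against PKP4-KO, and from 54.2% to 43.9%, 51.0% to 66.2% and 53.9% to 80.1% at 24 h LCM, 24 h HCM and 72 h HCM in Rescue against WT. The PKP4-KO libraries are shared by the comparisons of PKP4-KO with WT and of Rescue with PKP4-KO, so their values stand side by side and were not correlated.

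**Figure D4:**
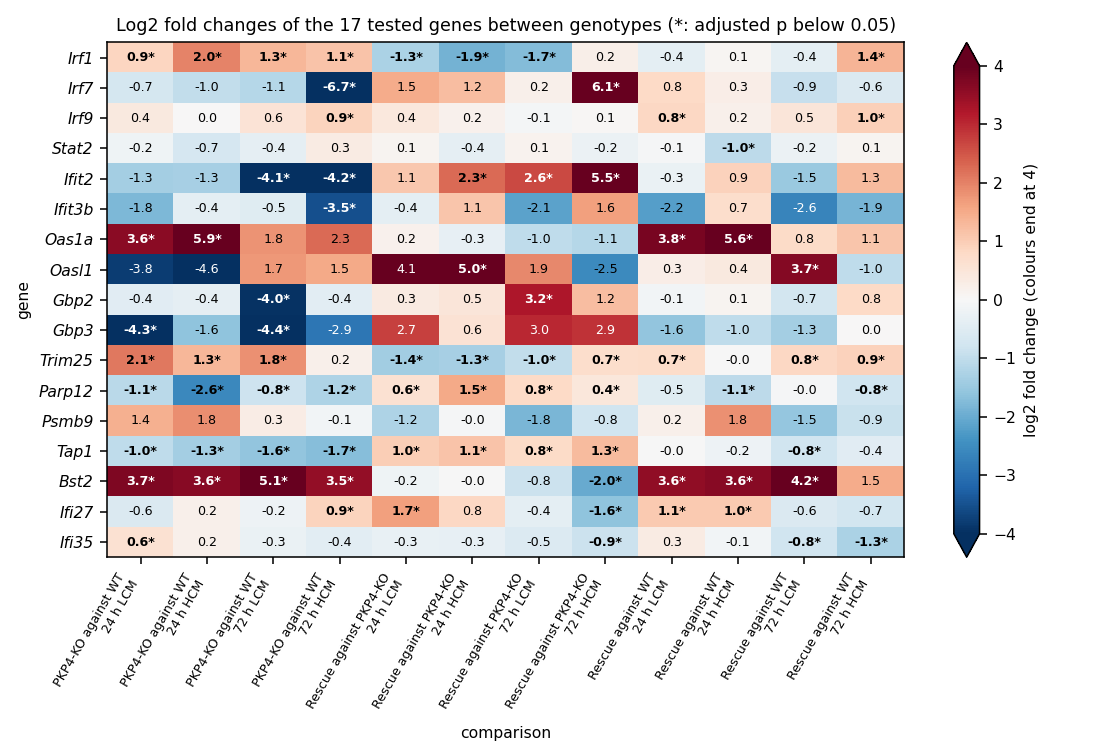
Log2 fold changes of the 17 tested members (rows) in the 12 genotype comparisons (columns), blue to red from -4 to 4, with an asterisk where the edgeR adjusted p is below 0.05. Irf1, Parp12 and Tap1 carry opposite signs in the called cells of PKP4-KO against WT and of Rescue against PKP4-KO, while Bst2 is near 0 in Rescue against PKP4-KO at 24 h.

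The other listed genes of the pathway, 61 in all with 40 tested, also moved in both directions. Among the 9 receptors and kinases, 2 were higher and 1 lower in PKP4-KO at 24 h LCM, 0 and 1 at 24 h HCM, 0 and 4 at 72 h LCM, and 0 and 7 at 72 h HCM. Jak2, which transmits the interferon gamma signal, was lower in all 4 conditions (-1.77, -1.29, -1.90 and -2.30 on the log2 scale). Jak2 lies on chromosome 19, where the 523 tested genes had medians of -0.25, -0.27, -0.30 and -0.42 in the same order. The part of this shift in the Jak2 values was not tested. Ddx58, which encodes the RNA sensor RIG-I, was lower in all 4 (-2.01, -2.46, -1.84 and -0.91), as was Eif2ak2, the RNA-activated kinase PKR (-1.19, -1.30, -1.29 and -2.18). B2m, the light chain of class I molecules, was higher by 3.28, 3.06, 3.51 and 3.15, while H2-D1, H2-K1, the proteasome genes Psme1 and Psmb10, the signalling inhibitor Socs3 and the nucleotide phosphohydrolase Samhd1 were also called higher in all 4 conditions. Of their partners in peptide processing and loading, chosen after their values were seen, Tapbp (tapasin) was called lower in 3 conditions, Tap2 higher in 1 and Psme2 in none. Isg20, an exonuclease, was called lower at 24 h (-0.99 in LCM and -1.24 in HCM) and higher at 72 h (2.33 and 1.16). Of the 40 tested pathway genes, 13 were higher and 6 lower at 24 h LCM, 9 and 8 at 24 h HCM, 12 and 8 at 72 h LCM, and 9 and 16 at 72 h HCM. The shares of all tested genes called higher and lower were 19.7% and 20.6% at 24 h LCM and 20.7% and 22.2% at 24 h HCM. At 72 h they were 21.3% and 23.8% in LCM and 21.9% and 29.9% in HCM. Without TMM factors the median of all genes at 72 h HCM was -0.83, and the part of the scaling in the pathway counts was not tested.

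The response to raised calcium was taken within each genotype and time, and the counts of called members are given beside the shares of all tested genes. In WT, 2 of 17 were called at 24 h and 3 at 72 h, against 14.2% and 21.4% of all tested genes. In PKP4-KO, 0 were called at 24 h by edgeR, with 0 at an unadjusted p below 0.05 and 0 by DESeq2, which gave no adjusted p for 8 of the 17, against 2.83% of all genes, and 5 at 72 h against 32.6%. In Rescue, 2 were called at 24 h and 3 at 72 h, against 12% and 24.9%. Irf1 was lower in HCM in WT, by 1.25 at 24 h and 1.0 at 72 h on the log2 scale, and its WT libraries in LCM and HCM did not overlap at either time. Parp12 was higher in HCM in WT at 24 h (1.22 (SE 0.18, adjusted p = 1.74e-05), edgeR), and its call at 72 h (0.52) was lost without any 1 of 5 of the 6 libraries (adjusted p up to 0.123, edgeR, without WT 72 h LCM replicate 3) and without TMM factors. Bst2 was called higher in HCM in WT at 72 h, with a ratio of 6.91-fold (95% exact binomial interval 2.28 to 28.1), a value that was 4.45-fold without WT 72 h HCM replicate 3, 19.4-fold without WT 72 h LCM replicate 1 and 4.32-fold without WT 72 h LCM replicate 2. The call was lost without WT 72 h HCM replicate 3 (log2 fold change 2.01, adjusted p = 0.213, edgeR), WT 72 h LCM replicate 2 (0.152) or WT 72 h LCM replicate 3 (0.101).

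In PKP4-KO at 72 h, HCM was lower than LCM for Trim25 (-1.36 (SE 0.18, adjusted p = 1.42e-06)), Irf1 (-1.19 (SE 0.21, adjusted p = 7.54e-05)) and Irf7 (counts 15, 1 and 4 in LCM and 0, 0 and 0 in HCM, at least 3.25-fold lower), all by edgeR. The Irf7 limit was at least 1.23-fold without PKP4-KO 72 h LCM replicate 1, at least 2.16-fold without PKP4-KO 72 h HCM replicate 1 and at least 2.03-fold without PKP4-KO 72 h HCM replicate 3. Its call was lost without PKP4-KO 72 h LCM replicate 1 (adjusted p = 0.0699, edgeR). Gbp2 and Stat2 were called higher in HCM, Gbp2 at 1, 3 and 3 counts against 0, 0 and 1, and both calls were lost when single libraries were left out (adjusted p up to 0.0741 for Gbp2 without PKP4-KO 72 h HCM replicate 2 and 0.233 for Stat2 without PKP4-KO 72 h HCM replicate 1, edgeR) and without TMM factors. In Rescue, Irf1 was lower in HCM at 24 h (-0.78) and higher at 72 h (0.76), the former lost without Rescue 24 h HCM replicate 2 (adjusted p = 0.0851) or Rescue 24 h LCM replicate 1 (0.0606) and the latter without Rescue 72 h HCM replicate 1 (0.0579), all by edgeR. Parp12 was called higher in HCM at 24 h in Rescue (0.64), and Ifit2 and Tap1 at 72 h (2.39 and 0.64). Each of these 3 calls was lost without 1 of several libraries, with adjusted p up to 0.144 (Rescue 24 h LCM replicate 3), 0.0856 (Rescue 72 h LCM replicate 2) and 0.0653 (Rescue 72 h LCM replicate 1) by edgeR.

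With culture time, 1 member was called in WT in LCM and 4 in HCM, against 9.96% and 17.8% of all tested genes. In PKP4-KO 5 were called in LCM and 8 in HCM, against 26.1% and 55.8%, and in Rescue 2 and 2, against 9.81% and 24.3%. Parp12 rose from 24 h to 72 h in LCM in all 3 genotypes, by 0.77, 1.04 and 1.21 on the log2 scale for WT, PKP4-KO and Rescue, and the WT call was lost without TMM factors (0.55, adjusted p = 0.178, edgeR). Trim25 fell in PKP4-KO in HCM by 1.71 (adjusted p = 8.09e-09, edgeR), and Irf1 by 1.09 (adjusted p = 8.25e-05, edgeR). In PKP4-KO in HCM, Oasl1 went from 0, 0 and 0 to 12, 6 and 1 counts, at least 15.8-fold higher, and Irf7 from 2, 5 and 8 to 0, 0 and 0, at least 2.00-fold lower. The Oasl1 limit was at least 8.76-fold without PKP4-KO 72 h HCM replicate 1, at least 24.0-fold without PKP4-KO 72 h HCM replicate 3, at least 10.1-fold without PKP4-KO 24 h HCM replicate 1 and at least 9.41-fold without PKP4-KO 24 h HCM replicate 2. The Irf7 limit was at least 1.21-fold without PKP4-KO 24 h HCM replicate 3, at least 1.33-fold without PKP4-KO 72 h HCM replicate 1 and at least 1.25-fold without PKP4-KO 72 h HCM replicate 3. Parp12 (1.42), Stat2 (1.49) and Bst2 (1.76) were called higher there, and none of these 3 was called without TMM factors (0.36, 0.42 and 0.74). Ifi27 rose there by 1.79 (adjusted p = 0.000132, edgeR), which without TMM factors was 0.74 and not called. In Rescue in HCM, Stat2 (1.61) and Irf1 (1.03) were higher at 72 h.

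Several further time calls rested on few counts or were lost when single libraries were left out. Gbp2 and Ifit2 were called lower at 72 h in PKP4-KO in LCM, by ratios of 16.6-fold (95% exact binomial interval 2.63 to 688) and 7.55-fold (95% exact binomial interval 2.31 to 39.0), and both were lost without PKP4-KO 24 h LCM replicate 3 (adjusted p = 0.0575 and 0.255, edgeR), Ifit2 also without PKP4-KO 72 h LCM replicate 1 (0.156) or replicate 2 (0.131). Without PKP4-KO 72 h LCM replicate 3 they went to -5.63 and -6.05 on the log2 scale. The Gbp2 ratio was 10.9-fold without PKP4-KO 72 h LCM replicate 1 and at least 3.24-fold without PKP4-KO 72 h LCM replicate 3. The Ifit2 ratio was 4.25-fold without PKP4-KO 24 h LCM replicate 3, 4.99-fold without PKP4-KO 72 h LCM replicate 1 and at least 4.43-fold without PKP4-KO 72 h LCM replicate 3. In WT in HCM, Ifit3b was called higher (8.88-fold (95% exact binomial interval 3.77 to 25.5)), with the call lost without any 1 of 5 of the 6 libraries (adjusted p up to 0.114, edgeR, without WT 24 h HCM replicate 1). Ifi35 was called higher in WT in HCM, with 9.74, 14.2 and 11.5 CPM at 24 h and 15.6, 15.0 and 29.0 CPM at 72 h, and without the highest library, WT 72 h HCM replicate 3, the log2 fold change went from 0.75 to 0.38 (adjusted p = 0.36, edgeR). Trim25 was called lower in WT in HCM (-0.60) and in PKP4-KO in LCM (-0.64), lost without WT 72 h HCM replicate 3 (adjusted p = 0.0972) or WT 24 h HCM replicate 1 (0.104) and without PKP4-KO 24 h LCM replicate 3 (0.0516), by edgeR. Ifi27 in WT in HCM (1.12) and in PKP4-KO in LCM (1.28) and Tap1 in Rescue in LCM (-0.67) were also called, and each was lost without single libraries (adjusted p up to 0.183 without WT 72 h HCM replicate 3, 0.0732 without PKP4-KO 24 h LCM replicate 3 and 0.113 without Rescue 24 h LCM replicate 3, edgeR).

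**Figure D5:**
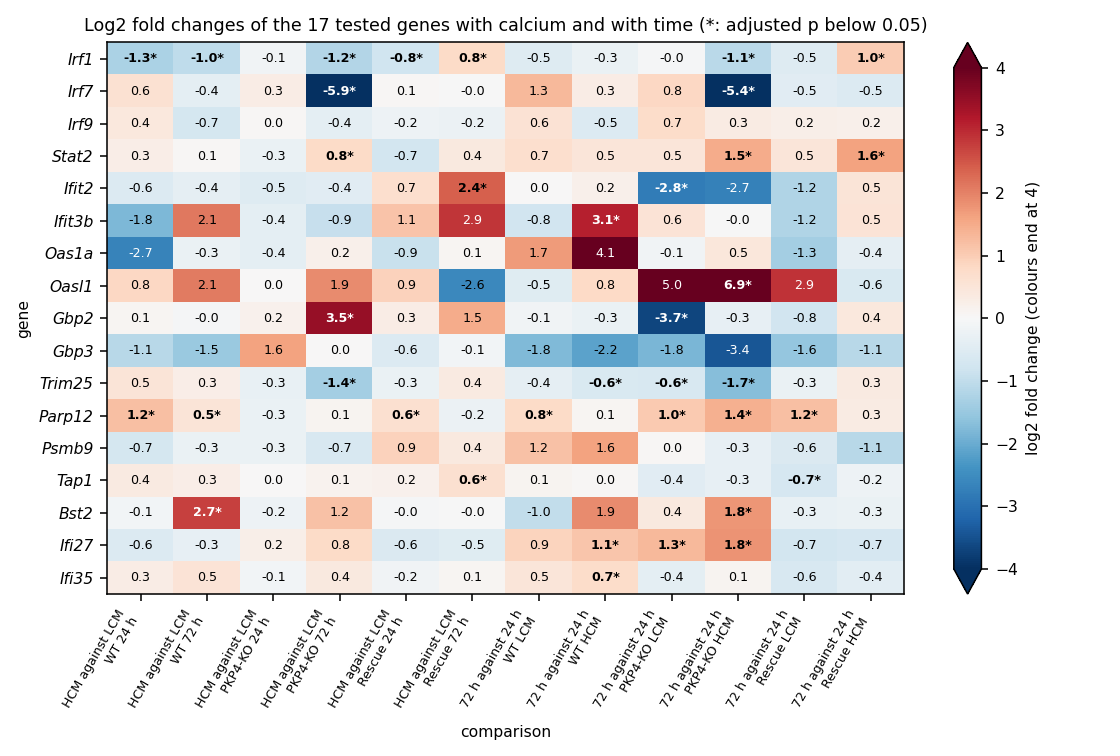
Log2 fold changes of the 17 tested members (rows) with calcium and with time in each genotype (columns), blue to red from -4 to 4, with an asterisk where the edgeR adjusted p is below 0.05. The column of calcium in PKP4-KO at 24 h holds no call, and that of time in PKP4-KO in HCM holds 8.

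Whether the difference between PKP4-KO and WT itself changed with medium or time was tested directly. Between HCM and LCM at 24 h, 2 of the 17 members were called, against 4.02% of all tested genes. The difference of Parp12 was deeper in HCM by -1.48 (SE 0.27, adjusted p = 0.000826) and that of Irf1 larger by 1.11 (SE 0.29, adjusted p = 0.0218), both by edgeR. In the WT libraries at 24 h, Irf1 went from a mean of 6.97 ± 1.41 CPM in LCM to 2.93 ± 0.588 in HCM and Parp12 from 9.05 ± 0.749 to 21.0 ± 2.71 (mean ± SD, n = 3). In PKP4-KO, Irf1 read 12.6 ± 2.09 and 11.5 ± 0.607 and Parp12 4.24 ± 1.04 and 3.53 ± 0.300. The response of PKP4-KO to calcium at 24 h was not called for either gene. Between 72 h and 24 h in HCM, 5 members were called, against 26.6% of all genes, and these were Parp12 (1.34), Trim25 (-1.11), Irf1 (-0.83), Irf7 (-5.67) and Oasl1 (6.13).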

How the data were processed

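RNA-seq libraries of WT, PKP4-KO and Rescue keratinocytes were analysed from the counts table that the authors deposited, which holds whole-number read counts per gene and library. The authors aligned paired-end, strand-specific poly(A) reads with HISAT2 (version 2.1.0) to the mouse genome GRCm39 with a GFP-PKP4 sequence added and counted them with featureCounts (version 2.0.0), with SAMtools (version 1.10) also named in the submitters' processing notes; the strand and multimapping settings are not given in the sources used here. Groups were taken from the sample labels, with 3 libraries in each of 12 groups. Libraries titled GFP are Rescue, since their genotype label names a knockout with GFP-PKP4, and HD and LD stand for 72 h and 24 h in the treatment labels. The members and gene lists were chosen with earlier results of these data known.

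Genes with few counts were removed with filterByExpr, 15114 genes were kept, and 1 quasi-likelihood model over the 12 groups was fitted with edgeR (version 4.0.16, limma 3.58.1, R 4.3.3) and TMM factors. Calls required a Benjamini-Hochberg adjusted p below 0.05 over all kept genes, and the procedure was tested on simulated data. Ratios of few counts carry a 95% exact binomial interval, and a group at 0 was set to 3 counts. The sum of the other group was then taken as exact, so that folds given as at least a value are not ends of a 95% interval. These intervals and floors cover counting error only. The libraries of 13602728 to 22467187 counts limit the precision for most members. DESeq2 (version 1.42.0), no TMM factors, other filters, fits of only the groups compared, a replicate block and the omission of single libraries were run as alternatives. Levels in every WT and PKP4-KO library are given for members called in 1 direction in all 4 comparisons of PKP4-KO with WT. The 3 called members with the largest change in each calcium and time comparison were also described. So were members called in opposite directions and up to 5 in each test of a difference. Levels in every library are given for only part of these. Other members called in a genotype comparison were described after their values were seen. A gene of the pathway list is not reported here.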

Additional observations from a re-analysis of the deposited data

Results flagged for a closer look

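The difference between PKP4-KO and WT itself differed between culture conditions for some members (edgeR interaction contrasts). Between HCM and LCM at 24 h, the difference was -1.48 for Parp12 and 1.11 for Irf1 on the log2 scale. Without TMM factors 1 member was called higher and 0 lower in place of 1 and 1, so that the Parp12 call was lost. The Irf1 value lost its call without PKP4-KO 24 h LCM replicate 1 (adjusted p = 0.0704), PKP4-KO 24 h LCM replicate 2 (0.0526), WT 24 h HCM replicate 3 (0.0792), WT 24 h LCM replicate 2 (0.0575) or WT 24 h LCM replicate 3 (0.0698), all by edgeR.

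Between 72 h and 24 h in HCM, the difference was 1.34 for Parp12, -1.11 for Trim25, -0.83 for Irf1, -5.67 for Irf7 and 6.13 for Oasl1. The calls of Parp12 and Trim25 held when each library was left out. Those of Irf1, Irf7 and Oasl1 were lost in several omissions, with adjusted p up to 0.153 for Irf1 (without WT 72 h HCM replicate 1), 0.0781 for Irf7 (without PKP4-KO 72 h HCM replicate 3) and 0.108 for Oasl1 (without PKP4-KO 72 h HCM replicate 1), all by edgeR. The TMM factors of the PKP4-KO 72 h HCM libraries were 0.481 to 0.546, and without such factors the members called were 0 higher and 6 lower in place of 2 and 3. The higher calls of Parp12 and Oasl1 were thus lost under that scaling. Over all genes, 715 were then called higher and 6613 lower in place of 1628 and 2390, with a median of -0.90. The part of the TMM factors in the result was not tested.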

How the results depend on the processing

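In PKP4-KO against WT, 31 gene-level log2 fold changes kept their direction in every alternative run. Beyond those, Ifi35 in Rescue against PKP4-KO at 72 h HCM turned without TMM factors and was then not called. Of the counts of called members, 26 of 26 stayed within 1.5 times with DESeq2 and with the replicate block. The replicate block gave 8, 6, 8 and 10 called members in PKP4-KO against WT at 24 h LCM, 24 h HCM, 72 h LCM and 72 h HCM, and changed none of the 31 gene calls there. Deviations of same-numbered libraries had a median correlation of 0.0125 (-0.790 to 0.845), against 0.0273 for different numbers. A median over all groups cannot show whether libraries of some groups were paired. The sources used here do not say how the libraries were numbered, and they were treated as unpaired in the main model.

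With at least 10 counts in every library, only Irf1, Irf9, Stat2, Trim25, Parp12, Tap1 and Ifi35 remained of the members. The numbers of calls under this filter are thus out of fewer members than in the main model. The calls became 4 in PKP4-KO against WT at 24 h LCM, 72 h LCM and 72 h HCM. They also became 4 in Rescue against PKP4-KO at 72 h HCM. In Rescue against WT they became 3, 2 and 3 at 24 h LCM, 24 h HCM and 72 h LCM, with calcium 3 in PKP4-KO at 72 h, and with time 2 in WT in HCM, 3 in PKP4-KO in LCM and 4 in PKP4-KO in HCM. When only the groups compared were fitted, with fewer residual degrees of freedom, the calls became 5 in PKP4-KO against WT at 24 h LCM, 3 in Rescue against PKP4-KO at 72 h LCM, and 2 and 2 in Rescue against WT at 24 h LCM and HCM. In that fit they became 2, 0 and 1 with calcium in PKP4-KO at 72 h, Rescue at 24 h and Rescue at 72 h, 1 each with time in WT HCM, PKP4-KO LCM and Rescue LCM, and 1 and 2 in the tests of a difference. Without TMM factors they became 2 in Rescue against WT at 24 h LCM, 1 with calcium in Rescue at 24 h, 0 and 1 with time in WT in LCM and HCM, and 1 in the difference between media. With no filter on low counts they became 3 and 3 in Rescue against WT at 24 h LCM and HCM, 0 with calcium in Rescue at 24 h, 0, 3 and 1 with time in WT HCM, PKP4-KO LCM and Rescue LCM, and 1 and 2 in the tests of a difference. The causes were not tested beyond the construction of each alternative.

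Leaving out single libraries gave 6 to 8, 6 to 7, 7 to 8 and 6 to 10 calls in PKP4-KO against WT, 4 to 5, 4 to 5, 4 to 9 and 7 to 9 in Rescue against PKP4-KO, and 3 to 5, 3 to 5, 3 to 5 and 5 to 6 in Rescue against WT, in the same order of conditions. With calcium it gave 2 to 3 and 1 to 3 in WT, 0 and 2 to 5 in PKP4-KO, and 0 to 2 and 1 to 4 in Rescue at 24 h and 72 h. With time it gave 1 and 0 to 4 in WT, 1 to 6 and 7 to 8 in PKP4-KO, and 1 to 2 and 2 in Rescue in LCM and HCM, and in the tests of a difference 1 to 3 and 2 to 5. Of 120 calls, 43 were lost in at least 1 omission. Depth limits the members with few counts, and the 23 below the filter were tested only in the fit without it.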

Other observations

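Without the filter on low counts, 15 calls were made among the 23 members that the main model did not test (edgeR). That fit covered 28780 genes. In PKP4-KO against WT, 2562 of them were called higher and 2757 lower at 24 h LCM and 2761 and 2973 at 24 h HCM. At 72 h these were 2829 and 3233 in LCM and 2992 and 4168 in HCM. In Rescue against WT at 72 h, 2289 and 1704 were called in LCM and 2386 and 2328 in HCM. In Rescue against PKP4-KO, 2372 and 1874 were called at 24 h LCM and 2990 and 2416 at 24 h HCM. At 72 h the same comparison gave 3167 and 2309 in LCM and 5304 and 4404 in HCM. Dhx58, the LGP2 gene, was called higher in PKP4-KO than in WT at 72 h in LCM (log2 fold change 5.70) and HCM (4.94). It was also called higher in Rescue than in WT at 72 h in LCM (4.53) and HCM (5.18). Dtx3l, a ubiquitin ligase, was called higher in PKP4-KO than in WT in LCM at 24 h (4.63) and 72 h (4.06), and lower in Rescue than in PKP4-KO at 72 h LCM (-4.05). Oas3 was called lower (-5.57) and Parp14 higher (5.22) in PKP4-KO at 24 h HCM. Isg15 was called higher at 72 h than at 24 h in PKP4-KO in HCM (5.16). No count of these genes exceeded 15 in a library, and fitted values at such counts depend on the prior count.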
